A study of Danio rerio with 18 samples.

Results

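The 10 genes described here encode apolipoproteins and other carriers made largely by the liver. They are the apolipoprotein genes apobb.1, apoa1a, apoa1b, apoa2, apoc2, apoc4 and apoeb, and the carrier genes fabp10a, rbp4 and ttr. They were taken by symbol from the 25266 gene rows of the deposited count table. All 10 had a row, and all 10 were among the 22038 genes with enough reads to be tested.

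Lipoproteins carry fats and sterols through the blood. Apolipoprotein B forms the scaffold of the large particles that leave the liver, the intestine and, in fish larvae, the yolk syncytial layer. Apolipoproteins A-I and A-II sit on high-density particles, apolipoprotein C-II activates lipoprotein lipase, and apolipoprotein E binds the receptors that take particles up. Liver fatty acid binding protein (fabp10a in fish) stays inside hepatocytes, whereas retinol binding protein 4 and transthyretin are secreted and carry retinol and thyroid hormone.

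The series measured RNA of 18 whole zebrafish larvae of the wild-type AB strain, with each library made from a single animal. Each larva had been sorted as resilient or susceptible (its archetype) at 6 days post fertilization (dpf) and was collected at 7 dpf. Basal larvae had no stress, and stressed larvae were taken 30 min after a stress that lasted 5 min. Of the resilient larvae 4 were basal and 5 stressed, and of the susceptible larvae likewise 4 and 5. The sources used here give neither the scoring of archetypes nor the clutches of the larvae. Basal and stressed larvae are different animals, so earlier differences between them and responses to the stress cannot be told apart.

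Library totals ran from 8452595 to 23801175 reads. Levels are given in CPM (counts per library size, scaled with TMM factors) and compare larvae for 1 gene, not genes with each other, because the values are not per length. The test was edgeR's quasi-likelihood test over all tested genes, and a call means a Benjamini-Hochberg adjusted p under 0.05. In earlier results of these data some larvae stood apart on several gene lists. They were resilient basal larvae 1 and 3, resilient stressed larvae 2 and 3 and susceptible basal larvae 1 and 2. For the apolipoprotein and carrier genes described here, several results are also given without these larvae. Calls for genes of the other lists are given from the fit of all larvae only. Of 27 hepatocyte marker genes, 0 were at 0 in any group and 1 averaged below 1 CPM. In whole-larva RNA, fewer cells of a type and less RNA per cell cannot be told apart.

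In resilient larvae, 1 of the 10 genes was called between stressed and basal animals, apoc4, which was lower after stress. Of all genes tested 6.35% were called in this comparison and 3.59% were called lower, so the call is a result about apoc4 and not about the 10 as a set. The 10 log2 fold changes had a median of -0.25, against 0.004 over all genes, and 7 of the 10 were negative against 49.2% of all genes. In susceptible larvae 0 of the 10 were called, where the background was 0% with edgeR. In that comparison 1642 genes (7.45%) had an unadjusted p below 0.05, among them 2 of the 10, and DESeq2 called 46 genes but none of the 10. The median of the 10 was -0.22 there and 8 were negative.

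Between archetypes after stress, apoc4 and apoa2 were called, both higher in susceptible larvae. The background was 3.55% of genes called in either direction and 1.77% called higher. The 10 genes had a median log2 difference of 0.15, with 7 positive. Between basal archetypes 0 of the 10 were called, again with a background of 0% by edgeR. There 1311 genes (5.95%) had an unadjusted p below 0.05, 1 of the 10 among them, and DESeq2 called 14 genes but none of the 10. The 2 stress comparisons and the 2 archetype comparisons share groups of larvae, so their values are set side by side and not counted as separate support.

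**Figure D1:**
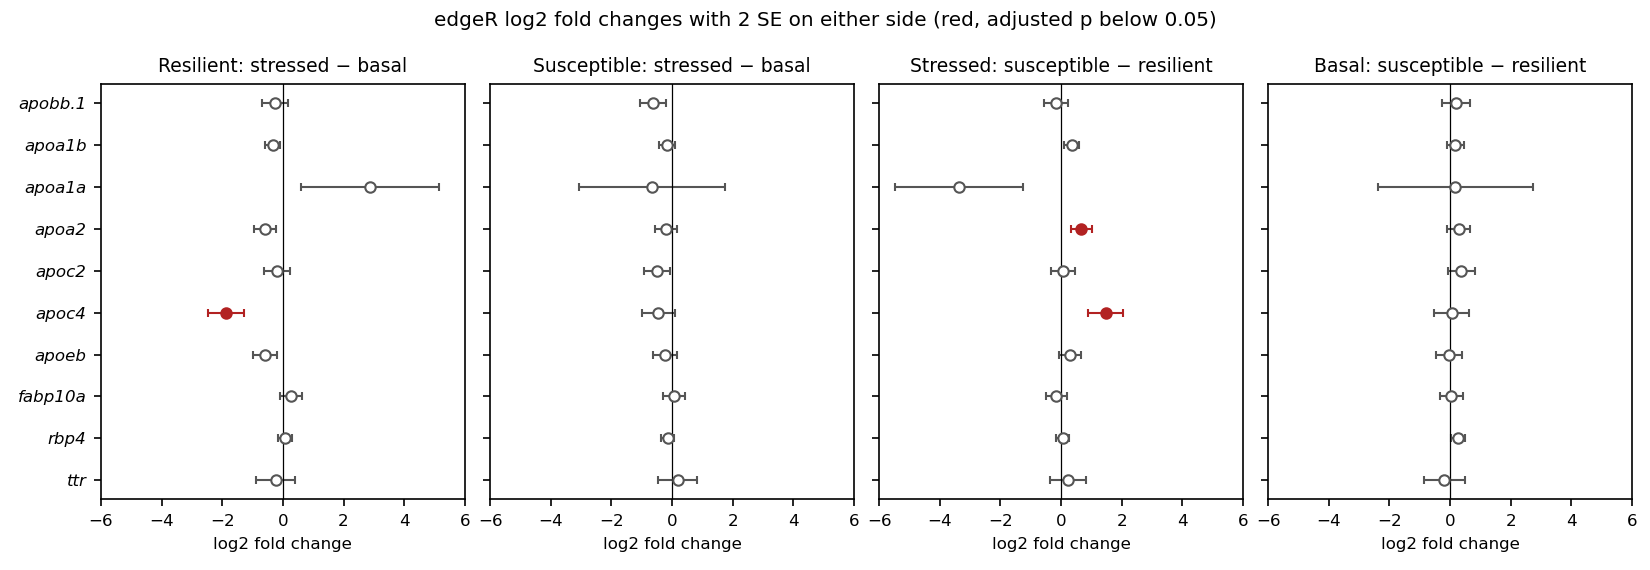
Log2 fold changes of the 10 genes (x axis, log2 units) in the 4 comparisons, from edgeR. Points are estimates, bars reach 2 SE to either side, and red marks an adjusted p below 0.05. apoc4 is the lone red point at -1.87 for stress in resilient larvae, and apoc4 and apoa2 are red at 1.47 and 0.66 between stressed archetypes. apoa1a has the longest bars, and the bars of each gene draw on the spread in all 4 groups.

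apoc4 encodes apolipoprotein C-IV, a minor component of triglyceride-rich particles in mammals. It had few reads, from 11 to 115 per larva. In resilient basal larvae 1 to 4 its level was 3.93, 3.72, 3.99 and 4.60 CPM, and in resilient stressed larvae 1 to 5 it was 0.939, 0.905, 0.981, 1.09 and 1.65 CPM. Every stressed larva lay below every basal one, an ordering that 4.36% of all genes showed in the lower direction. The log2 fold change was -1.87 (SE 0.30, adjusted p = 0.00314), and its p ranked 45 among 22038.

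In susceptible larvae apoc4 was less orderly. It stood at 4.97, 6.20, 3.39 and 2.30 CPM in basal larvae 1 to 4 and at 1.72, 4.75, 2.996, 2.64 and 3.12 CPM in stressed larvae 1 to 5. These groups overlapped across most of their range. The log2 fold change of -0.46 (SE 0.27) missed the threshold (adjusted p = 0.762). With susceptible basal larvae 1 and 2 left out it became 0.13.

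The stress responses of apoc4 in the archetypes differed by 1.41 on the log2 scale (SE 0.41, adjusted p = 0.137 by edgeR). An interval of 2 SE to either side ran from 0.60 to 2.22. In this test of the difference 0 of the 10 genes were called by edgeR or DESeq2, against 0.141% of all genes by edgeR. DESeq2 called 396 genes, gave apoc4 a difference of 1.42 (adjusted p = 0.0650) and gave apoa1a no adjusted p. An unadjusted edgeR p below 0.05 was found for 2 of the 10, apoc4 and apoa1a, and for 13.1% of all genes. Having passed in resilient and not in susceptible larvae, apoc4 was therefore not shown to differ between them at the threshold used.

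After stress apoc4 was higher in susceptible than in resilient larvae, at 3.05 ± 1.099 CPM (SD, n = 5) against 1.11 ± 0.307 CPM (SD, n = 5). The groups did not overlap, as 2.46% of all genes did in this direction, but the margin was narrow. The lowest susceptible stressed larva was at 1.72 CPM and the highest resilient stressed larva at 1.65 CPM. The log2 difference was 1.47 (SE 0.28, adjusted p = 0.0128). Between basal archetypes the means were 4.06 ± 0.379 CPM (SD, n = 4) and 4.21 ± 1.72 CPM (SD, n = 4), with a log2 difference of 0.06 (SE 0.29, adjusted p = 0.9995), and 2 SE to either side ran from -0.52 to 0.64.

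Both apoc4 calls held when any 1 larva was left out. For stress in resilient larvae the adjusted p then ran from 0.00202 to 0.0128, and between stressed archetypes from 0.00699 to 0.0428. The first call ended without resilient basal larvae 1 and 3 (log2 fold change -1.89, adjusted p = 0.0551) and without resilient stressed larvae 2 and 3 (-1.73, adjusted p = 0.0566). The call between stressed archetypes ended without resilient stressed larvae 2 and 3 (1.33, adjusted p = 0.152). The fold changes themselves moved little in these smaller fits. In the authors' deposited table apoc4 had an adjusted p of 5.23e-06 between resilient basal and stressed larvae and of 0.000469 between stressed archetypes. That table marks apoc4 as passing in both comparisons.

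**Figure D2:**
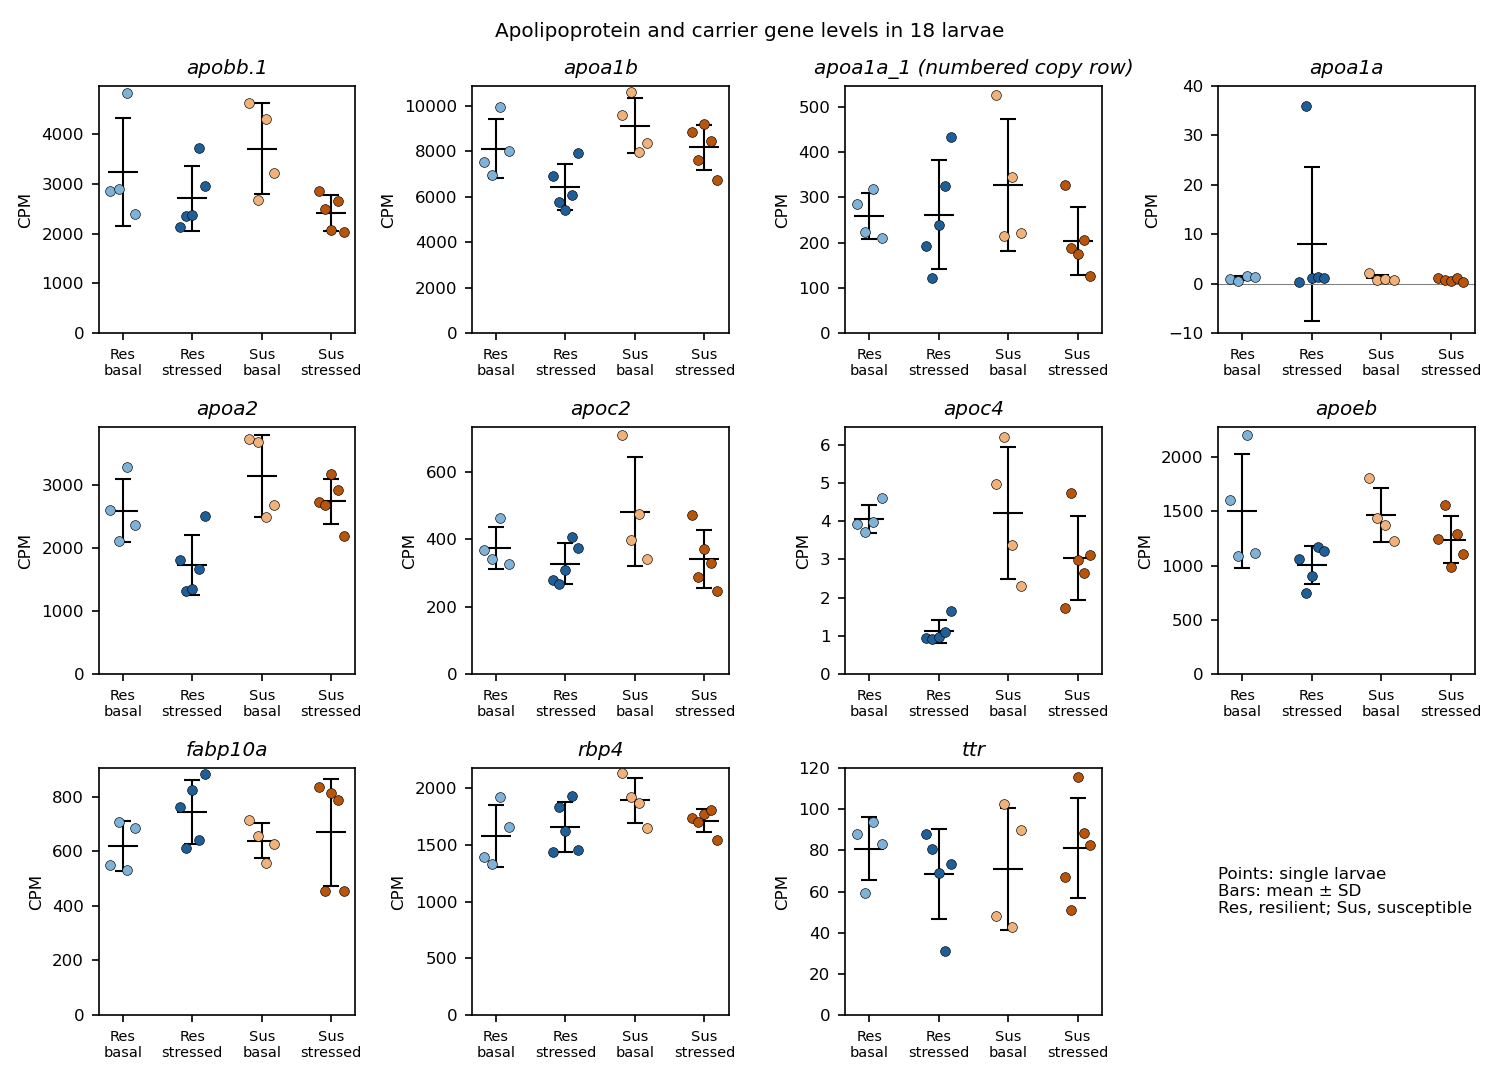
Level of each gene row in CPM (y axis, linear, each panel with its own scale) in the 4 groups (x axis). Each point is 1 larva, and bars give mean ± SD. The 5 resilient stressed larvae lie between 0.905 and 1.65 CPM for apoc4, below all other larvae, and a single resilient stressed larva stands at 35.9 CPM for apoa1a.

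Of the genes of high-density particles, apoa1b and apoa2 had their lowest mean level in resilient stressed larvae. The same was true of apoc2, apoc4, apoeb and ttr. By contrast, apobb.1, fabp10a, rbp4 and both rows of apoa1a had their lowest mean in another group. apoa2, which encodes apolipoprotein A-II, stood at 2602, 2112, 3287 and 2370.4 CPM in resilient basal larvae 1 to 4. In resilient stressed larvae 1 to 5 it was 1804, 1321, 1347, 1671 and 2499 CPM. All but resilient stressed larva 5 lay below the basal range, and larva 5 lay inside it. Its fold change, -0.59 on the log2 scale (SE 0.18), had an adjusted p of 0.0665 and missed the threshold.

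Susceptible larvae held apoa2 at 3721, 3678, 2492 and 2684 CPM before and at 2720.4, 2675, 3171, 2922 and 2191 CPM after stress. Their groups overlapped, and the log2 fold change was -0.20 (SE 0.18, adjusted p = 0.886). The difference between stressed archetypes was called at 0.66 (SE 0.17, adjusted p = 0.0442). Resilient stressed larva 5 again crossed into the other group, at 2499 CPM against a lowest susceptible value of 2191 CPM.

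That call sat at the threshold. It ended when resilient basal larva 1 or 4, resilient stressed larva 1, 2, 3 or 4, or susceptible stressed larva 1, 2, 3 or 4 was left out, with an adjusted p of up to 0.127, while the log2 difference stayed between 0.58 and 0.83. Without resilient stressed larvae 2 and 3 it was 0.46 (adjusted p = 0.348). Without resilient stressed larva 5 the adjusted p was 0.00738. For stress in resilient larvae, leaving out the same larva gave -0.75 (adjusted p = 0.0113), and DESeq2 gave -0.59 (adjusted p = 0.0226). Other fits weakened that fold change. It was -0.37 (adjusted p = 0.558) without resilient basal larvae 1 and 3 and -0.38 (adjusted p = 0.391) without resilient stressed larvae 2 and 3. With single larvae left out its adjusted p reached 0.210. In the authors' deposited table the adjusted p of apoa2 was 0.0267 for resilient basal against stressed larvae and 0.00679 between stressed archetypes. That table marks apoa2 as not passing in either comparison.

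apoa1b encodes apolipoprotein A-I, the main protein of high-density particles. Its level was 7532, 6944, 9961 and 8034 CPM in resilient basal larvae 1 to 4 and 6923, 5752, 5399, 6061 and 7924 CPM in resilient stressed larvae 1 to 5. Resilient stressed larvae 1 to 4 were below all basal ones, while larva 5 was inside their range, as for apoa2. On the log2 scale this came to -0.34 (SE 0.13, adjusted p = 0.125).

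For susceptible larvae the apoa1b values were 9581, 10612, 7977 and 8366 CPM before and 8843, 7624, 9183, 8433 and 6750.2 CPM after stress. The groups overlapped, with a log2 fold change of -0.16 (SE 0.13, adjusted p = 0.858). Between stressed archetypes the log2 difference was 0.35 (SE 0.12, adjusted p = 0.112). Without resilient stressed larva 5 apoa1b would be called both for stress in resilient larvae (-0.42, adjusted p = 0.0422) and between stressed archetypes (0.43, adjusted p = 0.0338). Other single larvae left out raised the adjusted p to as much as 0.377 and 0.265. Without resilient stressed larvae 2 and 3 the values were -0.22 (adjusted p = 0.541) and 0.23 (adjusted p = 0.574). Without resilient basal larvae 1 and 3 the resilient stress value was -0.22 (adjusted p = 0.630).

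apoa1a, the other apolipoprotein A-I gene of zebrafish, had 2 rows in the table, apoa1a and a numbered copy, apoa1a_1. The sources used here do not say what the number marks, and how reads were split between near-identical rows is uncertain. The row apoa1a held 5 to 39 reads in 17 larvae and 436 reads in resilient stressed larva 2. The row apoa1a_1 held 1466 to 9412 reads over the 18 larvae. Of the reads on both rows, 0.203% to 0.619% lay on the apoa1a row in 17 larvae and 22.9% in resilient stressed larva 2.

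In CPM, the apoa1a row stood at 0.913, 0.620, 1.53 and 1.302 in resilient basal larvae 1 to 4 and at 0.391, 35.9, 1.15, 1.32 and 1.21 in resilient stressed larvae 1 to 5. Susceptible larvae ranged from 0.785 to 2.18 CPM before and from 0.304 to 1.23 CPM after stress. All values but 1 lay between 0.304 and 2.18 CPM, and resilient stressed larva 2 alone set the group mean of 7.99 ± 15.6 CPM (SD, n = 5). The log2 fold change for stress in resilient larvae was 2.87 (SE 1.14, adjusted p = 0.153), and -0.06 without that larva (adjusted p = 0.971). Between stressed archetypes it was -3.37 (SE 1.05, adjusted p = 0.0841), and -0.44 without that larva (adjusted p = 0.686). With both rows summed the values were 0.06 (adjusted p = 0.951) and -0.40 (adjusted p = 0.526). The authors' deposited table gives apoa1a an adjusted p of 0.0113 between stressed archetypes, on the row as deposited, and marks it as passing.

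For the numbered row apoa1a_1 the resilient means were 259 ± 51.7 CPM before and 262 ± 121 CPM after stress. In susceptible larvae the means were 326 ± 146 CPM before and 204 ± 74.9 CPM after stress. Its groups overlapped throughout, and resilient stressed larvae alone spanned 121 to 432 CPM, the lowest and the highest being larvae 2 and 5. By edgeR its log2 fold change for stress was 0.02 (SE 0.36, adjusted p = 0.985) in resilient larvae. In susceptible larvae it was -0.68 (SE 0.36, adjusted p = 0.732), and between stressed archetypes -0.36 (SE 0.34, adjusted p = 0.601). With both rows summed, the value for susceptible stress was -0.68 (adjusted p = 0.692).

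apoeb encodes apolipoprotein E, and in zebrafish it is also a marker of microglia. It stood at 1603, 1089, 2206 and 1114 CPM in resilient basal larvae 1 to 4 and at 1064, 749, 908, 1169 and 1138 CPM in resilient stressed larvae 1 to 5. Basal larvae 1 and 3 were well above the rest, whereas basal larvae 2 and 4 lay inside the stressed range. Its log2 fold change was -0.58 (SE 0.20, adjusted p = 0.0917). Without resilient basal larvae 1 and 3 it was -0.12 (adjusted p = 0.846). DESeq2 gave an adjusted p of 0.0376 for apoeb, and the authors' deposited table gives 0.0443 and marks apoeb as not passing.

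Susceptible larvae had 1464 ± 249 CPM (SD, n = 4) of apoeb before and 1238 ± 216 CPM (SD, n = 5) after stress. The log2 fold change of -0.24 (SE 0.20, adjusted p = 0.863) did not pass, nor did the difference between stressed archetypes of 0.30 (SE 0.19, adjusted p = 0.396).

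The summed level of macrophage and microglia markers over 14 rows was 257 to 524 CPM in resilient larvae before and 119 to 221 CPM after stress. It was 199 to 418 CPM in susceptible larvae before and 282 to 411.5 CPM after stress. The resilient stressed range lay below the resilient basal range. Of 13 tested markers, 8 were called lower for stress in resilient larvae, where 3.59% of all genes were. Between stressed archetypes 6 were called higher, against 1.77% of all genes. mpeg1.2, a pore-forming protein of macrophages, had a log2 fold change of -1.89 (SE 0.35, adjusted p = 0.00815) for stress in resilient larvae. Of the 14 rows, 0 were at 0 in any group. Their part in the apoeb values was not tested.

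apobb.1, an apolipoprotein B gene, stood at 2856, 2889, 4826 and 2387 CPM in resilient basal larvae 1 to 4. Resilient stressed larvae 1 to 5 had 2125, 2343, 2370.1, 3720.2 and 2964 CPM. The groups overlapped widely, and the log2 fold change was -0.26 (SE 0.21, adjusted p = 0.526). Without resilient basal larvae 1 and 3 it was 0.05.

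Susceptible larvae had 4621, 2669, 4309.7 and 3219 CPM of apobb.1 before and 2847, 2486, 2062, 2663 and 2025 CPM after stress. Susceptible basal larvae 1, 3 and 4 were above every stressed larva, and larva 2 fell inside their range. The log2 fold change of -0.62 (SE 0.21) had the smallest p of the 10 genes in this comparison (adjusted p = 0.487). The responses in the archetypes differed by -0.36 (SE 0.30, adjusted p = 0.675), with 2 SE to either side running from -0.96 to 0.25.

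apoc2 is the lipase activator gene. Resilient larvae averaged 375 ± 61.3 CPM (SD, n = 4) before and 327 ± 60.6 CPM (SD, n = 5) after stress. Susceptible larvae averaged 482 ± 162 CPM (SD, n = 4) and 343 ± 86.7 CPM (SD, n = 5). The high susceptible basal mean came with 711 CPM in larva 1, against 343 to 477 CPM in the other basal larvae. For stress, the log2 fold change was -0.49 (SE 0.21, adjusted p = 0.606) in susceptible and -0.19 (SE 0.21, adjusted p = 0.656) in resilient larvae.

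Of the carriers, fabp10a and rbp4 stayed within a narrow band. Over all 18 larvae rbp4 ran from 1335 to 2139 CPM, a 1.60-fold range, and fabp10a from 455 to 883 CPM, a 1.94-fold range. Those were the smallest ranges of the 10 genes, and apoa1b followed with 1.97-fold.

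rbp4 stood at 1397, 1335, 1927 and 1662 CPM in resilient basal larvae 1 to 4 and at 2139, 1922, 1873 and 1652 CPM in susceptible basal larvae 1 to 4. The groups overlapped, although resilient basal larvae 1 and 2 were below all susceptible basal larvae. This was the gene of the 10 with an unadjusted p below 0.05 at baseline, and its log2 difference of 0.26 (SE 0.12) had an adjusted p of 0.829. For stress in resilient larvae the log2 fold change was 0.07 (SE 0.11, adjusted p = 0.784), with 2 SE to either side running from -0.16 to 0.29. In susceptible larvae it was -0.15 (SE 0.11, adjusted p = 0.849).

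fabp10a averaged 619.6 ± 91.0 CPM (SD, n = 4) in basal and 744 ± 116 CPM (SD, n = 5) in stressed resilient larvae. It had a positive log2 fold change in resilient larvae, 0.26 (SE 0.18, adjusted p = 0.437), where most of the 10 genes had a negative one. Susceptible stressed larvae fell into a high set of 3, at 788 to 835 CPM, and larvae 2 and 5, both at 455 CPM. Their log2 fold change from susceptible basal larvae was 0.07 (SE 0.18, adjusted p = 0.981).

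ttr, the transthyretin gene, varied from 31.3 to 116 CPM over the 18 larvae without separating any groups. Its lowest value, in resilient stressed larva 4, lay well under the 68.8 to 87.8 CPM of the other resilient stressed larvae. The susceptible basal larvae split into 48.2 and 42.9 CPM in larvae 1 and 3 and 103 and 90.1 CPM in larvae 2 and 4. The log2 fold changes ran from -0.24 to 0.24 over the 4 comparisons, and the smallest adjusted p was 0.706.

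Summed over the 10 genes, the share of all reads in resilient larvae was 1.56% to 2.30% before and 1.26% to 1.68% after stress, with means of 1.82% and 1.44%. In susceptible larvae it was 1.79% to 2.30% before and 1.54% to 1.89% after stress, with means of 2.05% and 1.77%. By larva, apoa1b alone held 0.528% to 1.11% of reads, so the sum depends most on that gene and does not describe each of the 10. The summed level of hepatocyte markers in resilient larvae ran from 9907 to 15492 CPM before and from 8650 to 10480.5 CPM after stress. In susceptible larvae it ran from 11137 to 15620.1 CPM before and from 9795 to 12598 CPM after stress. Of 27 markers 9 were called lower and 2 higher for stress in resilient larvae, and 2 were called higher between stressed archetypes. Of all genes 3.59% were called lower and 6.35% in either direction in the first comparison, and 1.77% higher in the second. serpina1l, an antitrypsin-like protease inhibitor gene, went from 1151 ± 248 to 618 ± 164 CPM in resilient larvae (-0.90, SE 0.23, adjusted p = 0.0277), while agxta, a glyoxylate-handling enzyme gene, rose by 0.61 (SE 0.15, adjusted p = 0.0221). The part of liver RNA as a whole in the values of the 10 genes was not tested.

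Some larvae were the highest or lowest of their group for several of the 10 genes at once. Leaving apoa1a aside, resilient basal larva 3 was the highest of its group for 7 of 9 genes and resilient basal larva 2 the lowest for 6. Susceptible basal larva 1 was the highest of its group for 6 of 9, resilient stressed larva 2 the lowest for 5 and susceptible stressed larva 5 the lowest for 6. Resilient stressed larvae 4 and 5 were each the highest for 4. Some of these genes varied together, so the counts are not separate observations. Whether the same larvae lead or trail as often over all genes was not tested.

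**Figure D3:**
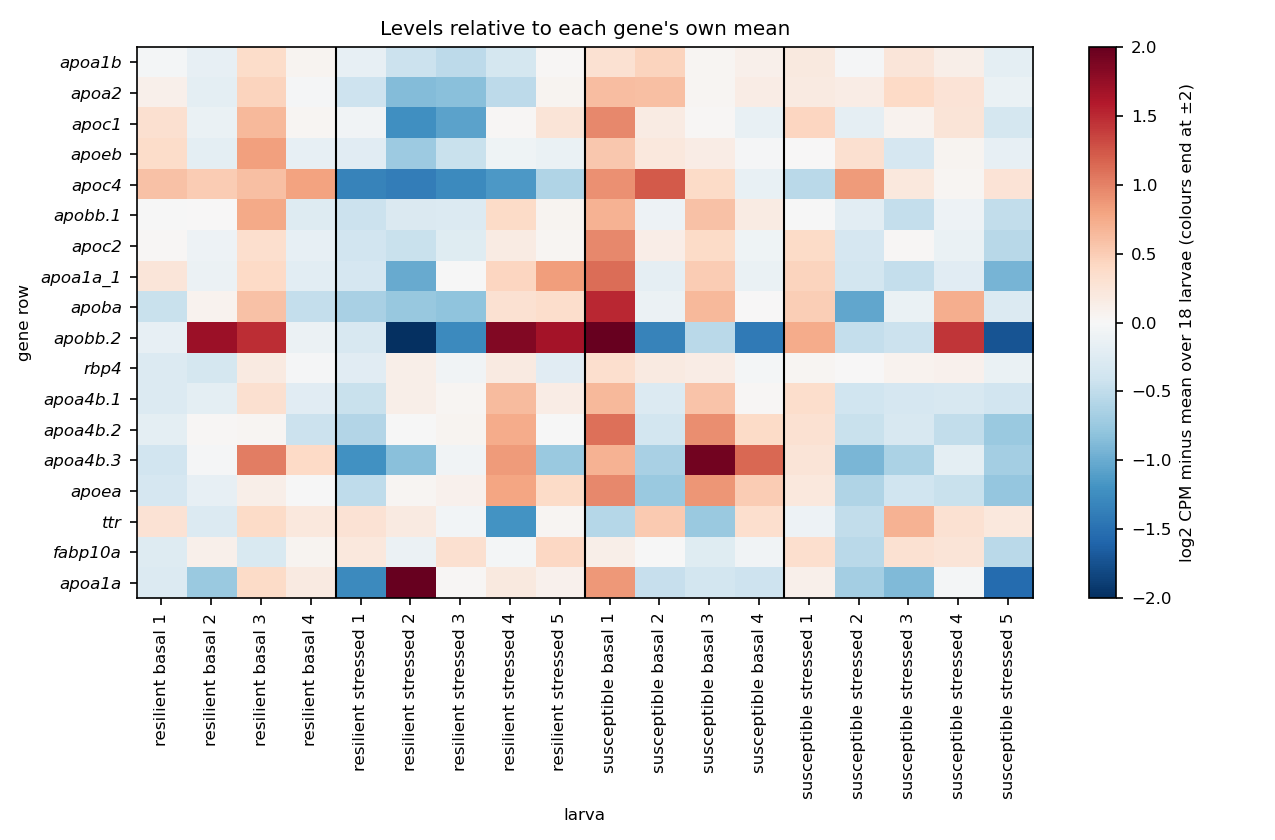
Log2 CPM of the gene rows (y axis) in each of the 18 larvae (x axis, by group), as the difference from the mean of that row over all larvae. Colours run from -2 to 2 log2 units and stop there. The apoc4 row is blue in all 5 resilient stressed larvae, and apoa1a is dark red in resilient stressed larva 2 alone.

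Some of the genes deviated together from their group means, given here as a description over 18 larvae in which all genes share library and depth. apoa1b and apoa2 varied together, with Pearson r = 0.93 and Spearman rho = 0.91 after the group means were removed. apoc1, the neighbour of apoeb and apoc4 on the chromosome, went with apoa2 at r = 0.83 and rho = 0.84. apobb.1 went instead with apoa4b.1, an apolipoprotein A-IV gene known mostly from the intestine, at r = 0.86 and rho = 0.79, and apoc2 went with apoa1a_1 at r = 0.88 and rho = 0.92. apoa1b and apobb.1 were less alike, at r = 0.24 and rho = 0.12. ttr ran against apoa4b.2 at r = -0.72 and rho = -0.54.

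In the RefSeq annotation of assembly GRCz12tu, used for gene order and names only, 4 of the 10 genes are neighbours. The order is apoa4b.1, apoa4b.3, apoa4b.2, apoeb, apoc1, apoc4, apoa2 and apoc2, with 3 further loci between them. Genes next to apoc4 had fold changes of smaller estimated size in resilient larvae. For stress in resilient larvae the log2 fold change was -1.87 for apoc4, which comes between apoc1 and apoa2 in this order. It was -0.55 (SE 0.31, adjusted p = 0.328) for apoc1 and -0.59 for apoa2, and these differences between genes were not tested. apoc1 ranged from 790.2 to 1357 CPM in resilient basal and from 370.1 to 1031 CPM in resilient stressed larvae, so its groups overlapped. The sources used here give no strand setting for the counting, so reads from overlapping or antisense genes cannot be told apart in this region.

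At the apolipoprotein A-IV end of the cluster no gene was called, and apoa4b.2 had fold changes of opposite sign in the archetypes. apoa4b.2 stood at 799.7, 287, 705 and 483 CPM in susceptible basal larvae 1 to 4 and at 457, 274, 298, 262 and 222 CPM in susceptible stressed larvae 1 to 5. Basal larva 2 lay among the stressed larvae, and the other 3 basal larvae lay above all of them. Its log2 fold change was -0.91 (SE 0.29, adjusted p = 0.442) in susceptible and 0.23 (SE 0.29, adjusted p = 0.708) in resilient larvae. The test of the difference gave -1.14 (SE 0.41, adjusted p = 0.243).

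apoea, the other apolipoprotein E gene, followed apoa4b.2 with r = 0.93 and rho = 0.80 after removal of group means. Its log2 fold change was -0.90 (SE 0.30, adjusted p = 0.479) in susceptible and 0.31 (SE 0.31, adjusted p = 0.619) in resilient larvae. Enterocyte markers were summed over 19 rows that include apoa4b.1 and apoa4b.2, so the sum partly repeats these genes. Together the markers ran from 5247 to 6548 CPM in susceptible basal and from 3487 to 6133 CPM in susceptible stressed larvae. In resilient larvae they ran from 4942 to 5833 CPM before and from 5303 to 6945 CPM after stress. Their part in the apoa4b.2 and apoea values was not tested.

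**Figure D4:**
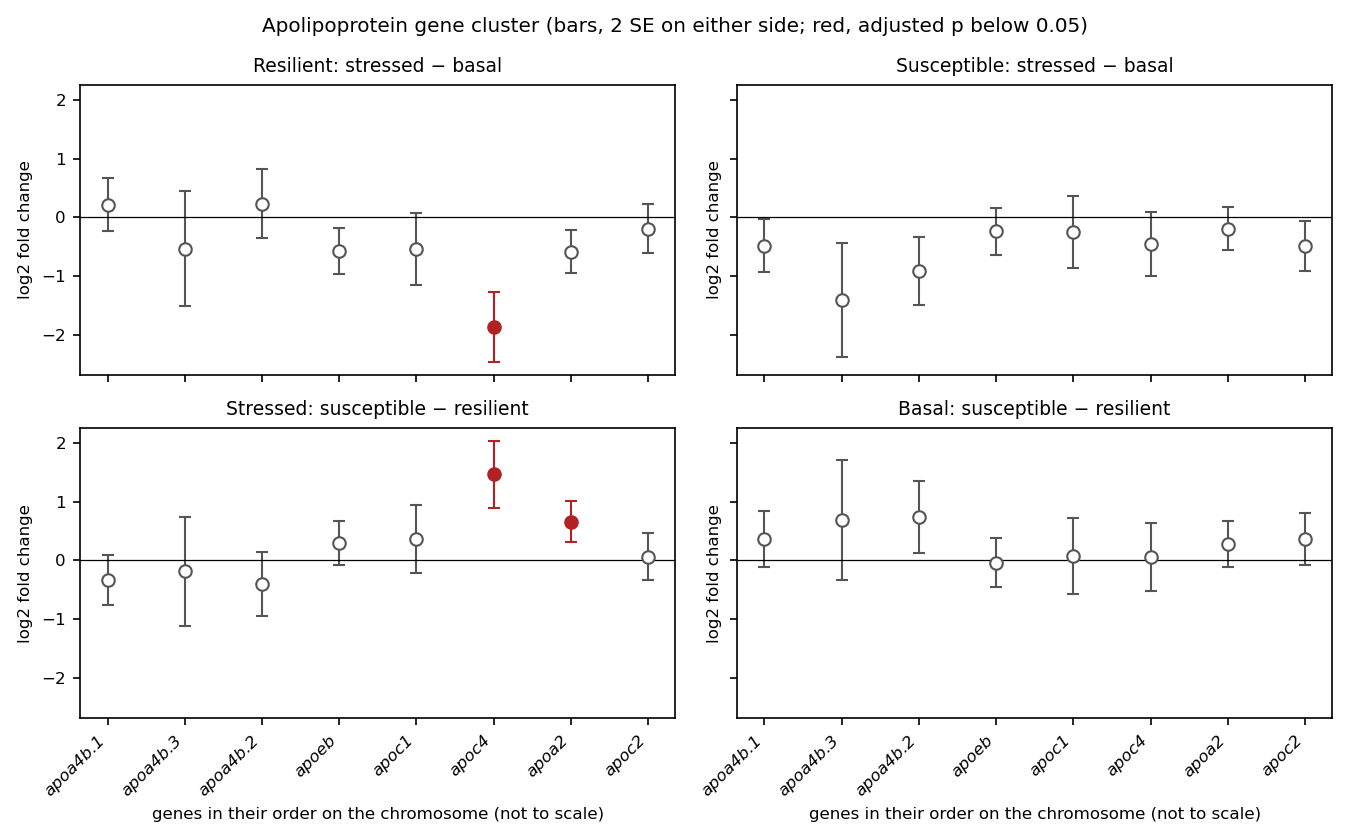
Log2 fold changes (y axis) of the apolipoprotein genes that neighbour each other, in chromosome order and not to scale (x axis), in the 4 comparisons. Points are edgeR estimates, bars reach 2 SE to either side, and red marks an adjusted p below 0.05. In resilient larvae apoc4 lies at -1.87 between apoc1 at -0.55 and apoa2 at -0.59, and in susceptible larvae apoa4b.3, apoa4b.2 and apoa4b.1 lie at -1.42, -0.91 and -0.48.

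As background for the lists below, 6.35% of all genes were called for stress in resilient larvae and 3.55% between stressed archetypes. Whether the list calls hold with larvae left out is not shown. Over all genes, the 1399 calls for stress in resilient larvae became 38 without resilient basal larvae 1 and 3. They became 69 without resilient stressed larvae 2 and 3. The 782 calls between stressed archetypes became 844 and 16 in these fits. Without susceptible basal larvae 1 and 2 the counts were 1443 and 840. Of 14 further apolipoprotein genes tested, 1 was called in any comparison. apol1, an apolipoprotein L gene, rose for stress in resilient larvae from 3.64 ± 0.259 to 5.84 ± 0.855 CPM (0.68, SE 0.17, adjusted p = 0.0236). The 14 genes had a median log2 fold change of 0.16 in resilient and -0.48 in susceptible larvae. In susceptible larvae 12 of 14 were negative, against 51.0% of all genes. Of 6 other fatty acid binding protein genes, fabp11a, an adipocyte and macrophage-type member, was lower for stress in resilient larvae, from 132 ± 47.2 to 51.5 ± 13.3 CPM (-1.35, SE 0.30, adjusted p = 0.0175). It was higher in susceptible than in resilient stressed larvae by 1.31 (SE 0.29, adjusted p = 0.0240).

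The other genes of retinoid and thyroid hormone handling gave 1 call in each direction among 16 for stress in resilient larvae. serpina7, related to the thyroxine-binding globulin gene of mammals, went from 4.53 to 0.731 CPM (-2.65, SE 0.60, adjusted p = 0.0181), and dio3a, which encodes a deiodinase that inactivates thyroid hormone, rose by 0.79 (SE 0.20, adjusted p = 0.0242). ttr, the carrier of the same hormone, had a log2 fold change of -0.24 there. Of 7 other liver-secreted carriers, cp (ceruloplasmin, a copper carrier) and sepp1b (selenoprotein P, a selenium carrier) fell by 1.15 (SE 0.23, adjusted p = 0.00971) and by 1.36 (SE 0.32, adjusted p = 0.0229).

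Of 16 genes of lipoprotein assembly tested, sar1b, a GTPase gene of particle export from the endoplasmic reticulum, was lower for stress in resilient larvae (-0.44, SE 0.10, adjusted p = 0.0175). dgat2, which encodes an enzyme that completes triglycerides, was lower between stressed archetypes, in the susceptible larvae (-0.98, SE 0.19, adjusted p = 0.0144). In susceptible larvae 15 of the 16 assembly genes were negative, against 51.0% of all genes, with a median of -0.15 and 0 called. Of 26 genes for remodelling and uptake, the scavenger receptor genes stab2 and stab1 fell for stress in resilient larvae, by 1.26 (SE 0.24, adjusted p = 0.00754) and by 0.94 (SE 0.22, adjusted p = 0.0183). Both were higher in susceptible than in resilient stressed larvae, by 1.17 (SE 0.22) and 1.05 (SE 0.21). The endothelial lipase gene lipg was lower in that comparison (-0.64, SE 0.17, adjusted p = 0.0391), and the receptor adaptor gene ldlrap1a rose for stress in resilient larvae (0.42, SE 0.11, adjusted p = 0.0245).

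Of 21 transcription factor genes of liver and lipid control, 0 were called by edgeR in any comparison, with 3 to 6 at an unadjusted p below 0.05 per comparison and 1 called by DESeq2, in the difference of stress responses. There the smallest edgeR p belonged to foxa1, a forkhead factor gene of liver and gut (-0.55, SE 0.15, adjusted p = 0.120). Of 18 sterol synthesis genes 0 were called by edgeR or DESeq2. For stress 17 of the 18 were negative in each archetype, against 49.2% of all genes in resilient and 51.0% in susceptible larvae. An unadjusted edgeR p below 0.05 was found for 3 of them in resilient and 2 in susceptible larvae. Their medians were -0.40 in resilient and -0.28 in susceptible larvae, and dhcr7, the gene of the last step to cholesterol, had the smallest p (-0.25, SE 0.09, adjusted p = 0.517, in susceptible larvae).

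The genes most like a member were sought over all 18 larvae, by Pearson r of log2 CPM, for the 5 members of widest range. Group differences enter these values, and the larvae share libraries and depth. apoc4 was closest to myh10 (r = 0.93, rho = 0.89) and myh9b (r = 0.92, rho = 0.89), both genes of nonmuscle myosin heavy chains, and to arsb (r = 0.92, rho = 0.88), a lysosomal sulfatase gene. apoeb was closest to rnasel3 (r = 0.92), taldo1 (r = 0.91) and rnasel3_1 (r = 0.91), and apoc2 to apoa1a_1 (r = 0.85), postna (r = 0.84) and acot16_1 (r = 0.84). ttr was closest to LOC103910520 (r = 0.84, rho = 0.80), with smc5 and usp6nl_1 next at r = 0.81 and 0.79. For apoa1a the closest genes were myhc4 (r = 0.90, rho = 0.44), si:ch211-14k19.8_1 (r = 0.84, rho = 0.72) and tnksa_1 (r = 0.79, rho = -0.02). The apoa1a row was at 35.9 CPM in resilient stressed larva 2 and at most 2.18 CPM in the others. Its Pearson values therefore depend heavily on that larva.

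**Figure D5:**
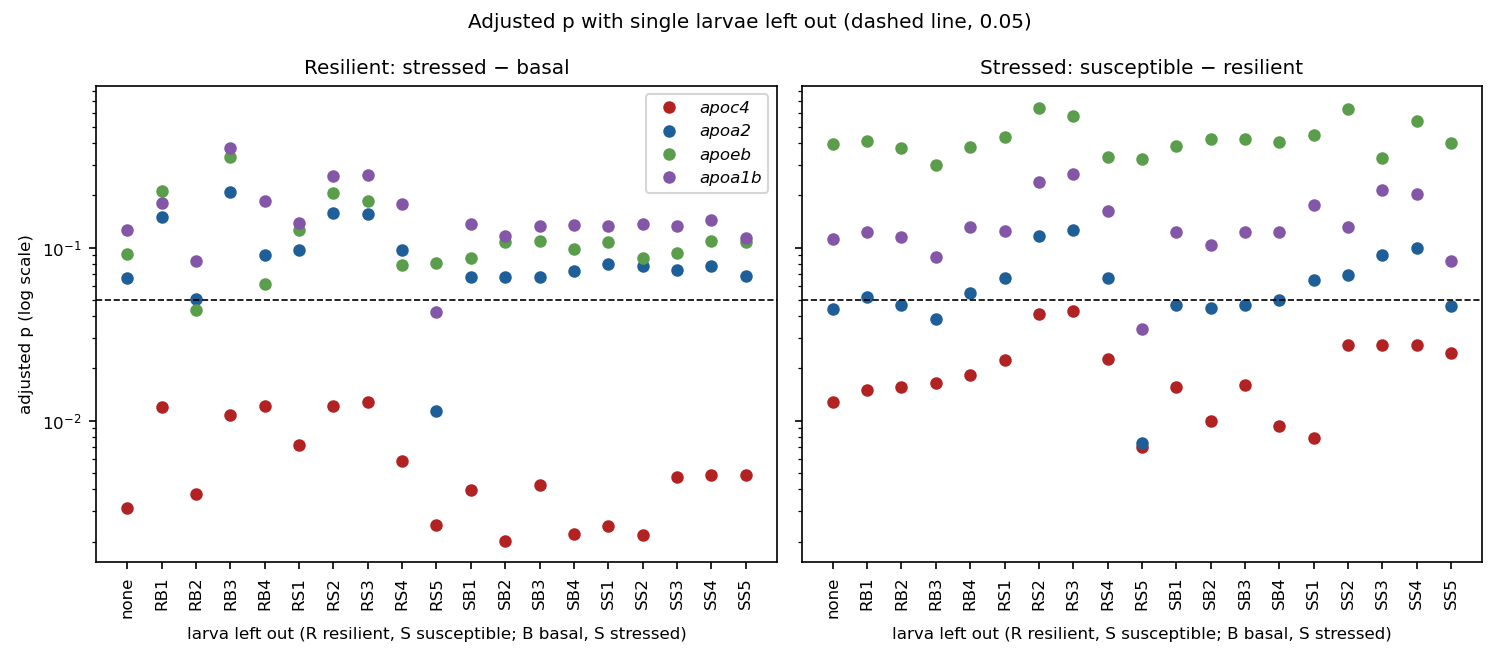
Adjusted p (y axis, log scale) of apoc4, apoa2, apoeb and apoa1b with no larva or 1 larva left out (x axis), for stress in resilient larvae and between stressed archetypes. The dashed line is 0.05. apoc4 lies below the line at every point, and apoa2 and apoa1b drop below it in both panels when resilient stressed larva 5 is left out.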

How the data were processed

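RNA-seq of 18 single larvae was analysed from raw counts per gene row, which per the file headers is what the authors deposited. The submitters' processing notes name the danRer11 build and the tools STAR, cutadapt and DESeq2, and neither versions, gene counter nor strand setting was found in the sources used. The authors also deposited, per the file headers, counts divided by size factors (signal), rlog values on a log2 scale and their own comparisons with log2 fold changes and p-values. Only those p-values and the pass marks beside them are quoted, and the scaled counts served as an alternative scale for levels. The rule behind a pass mark is not given here. Of 25281 rows, 15 named as dates were left out (0.0613% to 0.0698% of reads).

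All comparisons came from 1 edgeR 4.0.16 fit (R 4.3.3, TMM, filterByExpr, robust quasi-likelihood F test, 4 group means, 18 larvae, 22038 genes). SE was taken as the size of the log2 fold change divided by √F. Correlations used log2 CPM with a prior count of 2. The 10 genes, the lists and the alternatives were chosen with earlier results of these data known. Of the 260 further list entries, 229 matched a row by symbol, another symbol of the gene or a single numbered copy, and 219 were tested. Some genes, cp among them, are entries of more than 1 list. From each list up to 3 called genes of smallest p per direction and comparison were named, or the smallest p where none was called, and closest genes were the 3 of highest r with a mean of at least 1 CPM.

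Alternatives were DESeq2 1.42.0, RLE and upper-quartile factors, other filters, the compared groups alone, replicate blocks, and larvae left out. Total-count scaling and a sum of both apoa1a rows were added after seeing the data. The fit was tested on simulated data. No pair of larvae of 1 group had near-identical counts (32 pairs, chi-square per degree of freedom at least 6.50). Depth is low for apoa1a, with 5 to 39 reads in 17 larvae, and for apoc4, with 11 to 115 reads per larva. P-values set a difference between groups against the spread between larvae. In the main fit that spread was estimated per gene over all 4 groups, so larvae outside a comparison also enter its p-value and SE.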

Additional observations from a re-analysis of the deposited data

Results flagged for a closer look

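In 3 of 44 sets, each the larvae of 1 group for 1 gene row, a single larva stood apart from the rest of its group by Dixon's 95% criterion, which chance alone meets in about 1 set in 20. The apoa1a row was at 35.9 CPM in resilient stressed larva 2, against 0.391 to 1.32 CPM in the other resilient stressed larvae. The same row was at 2.18 CPM in susceptible basal larva 1, against 0.785 to 0.847 CPM in the others. apoc4 was at 1.65 CPM in resilient stressed larva 5, against 0.905 to 1.09 CPM in the others, with 19 reads behind the value.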

How the results depend on the processing

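Of 1540 log2 fold changes of the 10 genes recomputed under alternatives, 1485 kept their direction and side of the threshold, 16 missed it, 7 newly passed it and 32 changed sign, over 14 of 50 results. No sign changed under DESeq2 or another scaling, and no scaling moved the median of all genes by over 0.1. Called genes for stress in resilient larvae, 1 of 10, were 3 with DESeq2 (apoc4, apoa2 and apoeb), which called 1886 of all genes there. They were 0 without resilient basal 1 and 3, 0 without resilient stressed 2 and 3 and 1 to 3 with single larvae left out. Between stressed archetypes, 2 of 10 were called, 1 in a fit of those groups alone, 1 with a replicate block by title number, 0 without resilient stressed 2 and 3 and 1 to 4 with single larvae left out. In the other comparisons 0 were called under every alternative run. DESeq2 gave apoa1a no adjusted p in any comparison, and these values were counted above as not passing the threshold.

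Signs changed without resilient basal 1 and 3 for apobb.1 in resilient stress (0.045), for apoeb (0.42), fabp10a (-0.12) and ttr (0.011) at baseline and for apoeb in the difference of responses (-0.12). Without resilient stressed 2 and 3 they changed for apoa1a in resilient stress (-0.12) and apoc2 between stressed archetypes (-0.048). Without susceptible basal 1 and 2 they changed for apoa2 (0.080) and apoc4 (0.13) in susceptible stress and for apoa1a (-0.37), apoa2 (-0.0030), apoc4 (-0.53) and fabp10a (-0.064) at baseline. With a block by bracket number they changed at baseline for apoa1a (-0.23), apoc4 (-0.11) and ttr (0.0017). The cause was not tested; these fits hold fewer larvae or further terms.

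With single larvae left out, values crossed 0 in resilient stress for apoa1a (-0.058 to 3.18), apobb.1 (-0.40 to 0.0015) and rbp4 (-0.0040 to 0.18), in susceptible stress for fabp10a (-0.020 to 0.18) and between stressed archetypes for apoc2 (-0.081 to 0.15). At baseline they did so for apoa1a (-0.40 to 0.38), apoc4 (-0.18 to 0.27), apoeb (-0.17 to 0.20) and fabp10a (-0.023 to 0.11).

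Over all genes, 1399 calls for stress in resilient larvae became 1886 with DESeq2 and 640 in a fit of those groups alone. They became 863 and 427 with a block by title or bracket number, 38 without resilient basal 1 and 3, 69 without resilient stressed 2 and 3 and 398 to 1918 with single larvae left out. The 782 calls between stressed archetypes became 1543 with DESeq2, 503 and 487 with the blocks, 16 without resilient stressed 2 and 3 and 197 to 1730. The 31 calls for the difference of responses became 396 with DESeq2, which called 46 for susceptible stress and 14 at baseline. Deviations of same-numbered larvae from their group means correlated at r from -0.243 to 0.195. Whether the numbers mark a shared clutch or batch cannot be told from these values. A fit of the compared groups alone gives no difference of responses.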
